A study of Mus musculus with 4 samples.

Results

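Glial lipoprotein and lipid efflux genes were followed in mouse engineered neural tissue, a gel culture of neural stem cells, with and without electrical stimulation. The set was fixed by gene symbol and holds 10 of the 23874 genes in the count table. Its members are the apolipoprotein genes Apoe, Clu and Apod, the cholesterol exporter genes Abca1 and Abcg1, the lipoprotein enzyme gene Lcat, and the receptor genes Scarb1, Lrp1, Vldlr and Lrp8. All 10 passed the filter on low counts and were among the 14263 genes tested.

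In EF tissue a field of 150 mV/mm was applied for 30 min on each of 3 days, after which culture went on for 7 days, and noEF tissue received no field. Both were made from neurospheres, balls of stem and progenitor cells grown in suspension, set in Matrigel, a basement membrane extract, under medium with 20 ng/ml human basic fibroblast growth factor, a progenitor mitogen. The labels name no mouse strain, sex or age. There were 2 libraries in each group, named EF 1 and EF 2, and noEF 1 and noEF 2, although the labels speak of 3 replicates per group. No label says that replicates came from separate cultures, so the p-values measure the spread between these libraries, which may be technical. The series design text calls the control a suspension of stem cells, while the sample labels call noEF the same engineered tissue, and the sample labels were followed here.

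Neurons in the brain depend on cholesterol that glia secrete in small lipoprotein particles, because plasma lipoproteins do not cross the blood-brain barrier. Astrocytes load cholesterol and phospholipid onto apolipoprotein E and clusterin through ABC transporters, the enzyme LCAT esterifies the cholesterol on the particle, and receptors of the LDL receptor family take the particle up. The liver X receptors, which sense oxysterols, switch on Abca1, Abcg1, Apoe and other genes of this route when sterols accumulate.

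All 4 libraries had total counts between 33748880 and 34554537, and 1 count was worth 0.028 to 0.0307 on the TMM-scaled counts-per-million scale (CPM). The cell type named in the labels, neural stem cells, was checked against marker genes. All 10 astrocyte genes and all 8 neural stem and radial glia genes examined were expressed. The summed level of the second list was 7940 and 7980 CPM in EF and 9210 and 8970 CPM in noEF, most of it from Fabp7, Vim and Slc1a3. Slc1a3 is in both lists (2992 and 2733 CPM in EF, 2484 and 2638 CPM in noEF), so their sums are not separate. In EF all 6 dividing-cell genes were higher, with a summed level of 817 and 748 CPM in EF against 435 and 430 CPM in noEF, and the part of this in the results that follow was not tested. The 6 endothelial markers summed to 2.35 and 1.86 CPM in EF and 1.23 and 1.04 CPM in noEF.

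Among the members, Apoe and Clu were lower and Scarb1 was higher in EF, and the other 7 did not pass the test. The threshold was 0.05 on p-values from edgeR's quasi-likelihood F test, adjusted over every tested gene by the Benjamini-Hochberg method. By that rule 8.82% of all tested genes were called, 4.99% lower in EF and 3.83% higher. Higher genes were 43.4% of all calls with TMM scaling and 69.3% with library totals in its place, and the 3 called members were the same with both. The median log2 fold change of the members was 0.17, with 7 above and 3 below 0, and that of all tested genes was 0.01. The CPM ranges of EF and noEF did not overlap in 5 of the 10 members, against 54.4% of all tested genes. Of the 7 members that did not pass, 5 had a log2 fold change within 0.3 of 0 (Abca1, Lrp1, Lcat, Vldlr and Lrp8), a range that held 62.4% of all tested genes.

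**Figure D1:**
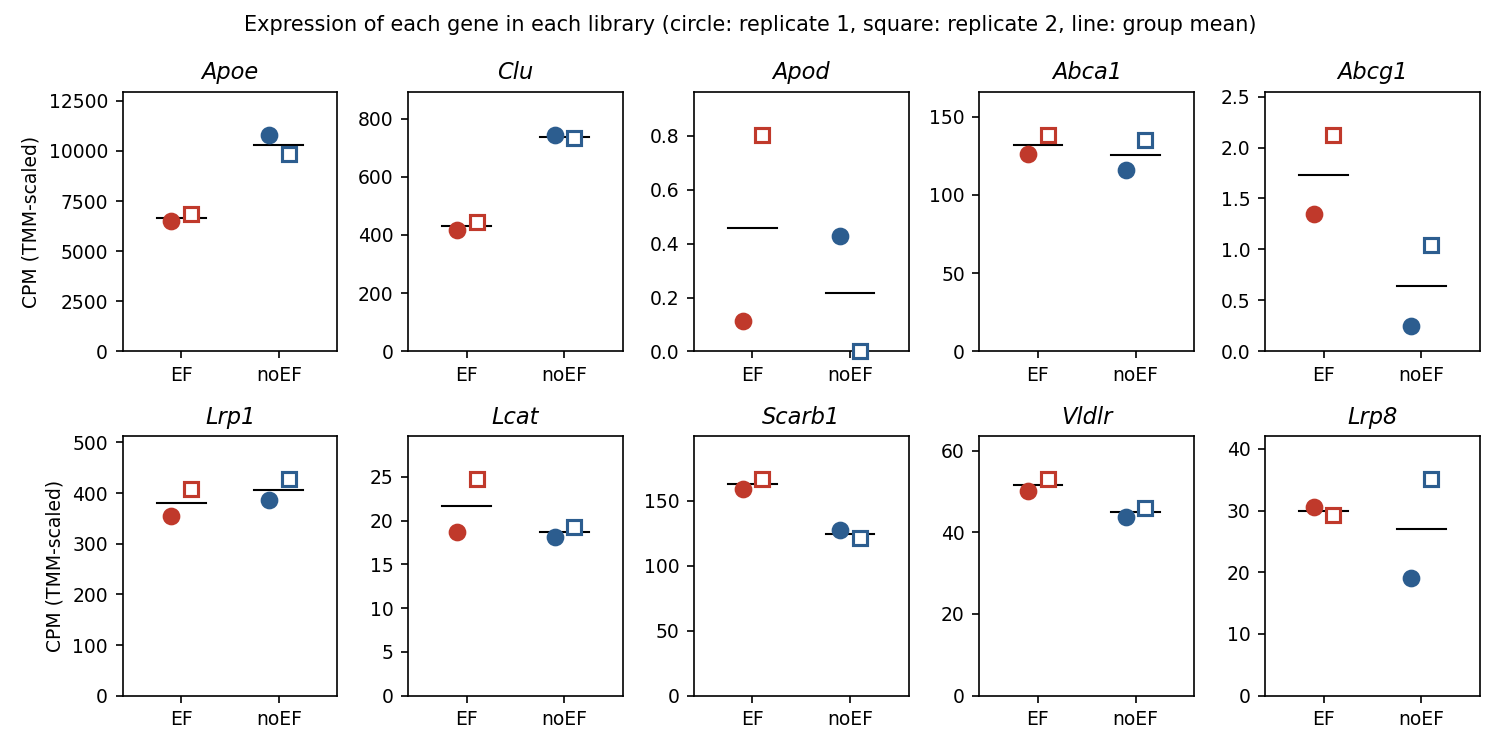
CPM of each gene (vertical axes, TMM-scaled, each starting at 0) in EF (red, left) and noEF (blue, right), with a circle for replicate 1, a square for replicate 2 and a line at the group mean. The EF libraries lie below the noEF libraries for Apoe and Clu and above them for Abcg1, Scarb1 and Vldlr, and the noEF libraries lie far apart for Lrp8.

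Apoe encodes the main lipid carrier of brain lipoproteins (ENSMUSG00000002985, GRCm38 chromosome 7, 19696109 to 19699188, minus strand). The window that holds its most upstream RefSeq start is shown because Apoe was the most abundant member and fell in EF. It spans chr7:19699139-19699438 on the minus strand (RefSeq, GRCm38.p6), and the capitals mark the bases from the start onward.
Apoe: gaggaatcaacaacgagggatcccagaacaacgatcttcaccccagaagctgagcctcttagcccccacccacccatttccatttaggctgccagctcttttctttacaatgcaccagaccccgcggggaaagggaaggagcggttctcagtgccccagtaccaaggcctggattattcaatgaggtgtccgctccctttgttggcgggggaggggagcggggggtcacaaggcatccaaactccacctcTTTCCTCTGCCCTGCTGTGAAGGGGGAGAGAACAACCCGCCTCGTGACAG
The window holds 10 CG dinucleotides and 57.7% G and C, against medians of 7 and 52.7% over the 32851 windows of the RefSeq table. Neither AGGTCA, the core motif of many nuclear receptors, nor the STAT motif TTCNNNGAA stands on either strand of it, while 16.3% and 8.3% of all windows hold these motifs.

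Apoe was at 6507 and 6839 CPM in the EF libraries, against 10785 and 9841 CPM in the noEF libraries. Both EF libraries were well below both noEF libraries. It fell in EF by 0.63 on the log2 scale (SE 0.08, 95% interval -0.80 to -0.46, edgeR adjusted p = 2.64e-04), which is 0.647 times the noEF level. Per kb of exon Apoe ranked 11 among all tested genes with an exon length, so the difference concerned one of the most abundant transcripts of the tissue. The size was smaller, -0.47, once a trend of counts with exon length and GC content had been taken out library by library, and the call stood (edgeR adjusted p = 6.59e-04). Bulk counts cannot tell fewer cells of a type from less RNA per cell.

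Clu encodes clusterin, also called apolipoprotein J, a secreted chaperone and lipid carrier of astrocytes (ENSMUSG00000022037, chromosome 14, 65968483 to 65981547, plus strand). It had 417 and 443 CPM in EF and 743 and 733 CPM in noEF. The groups did not overlap, and the libraries of each group lay close together. Clu fell by 0.78 on the log2 scale in EF (SE 0.08, 95% interval -0.95 to -0.61, edgeR adjusted p = 4.49e-05), to 0.583 times the noEF level. The interval of Clu overlapped that of Apoe, and the number of Apoe counts per Clu count within a library was 15.6 and 15.4 in EF and 14.5 and 13.4 in noEF.

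Of the 10 astrocyte markers, 4 were also lower in EF (Gfap, Gja1, Aldoc and Aqp4) and 0 were higher, and their summed level was 6780 and 6480 CPM in EF against 7200 and 7520 CPM in noEF. The median log2 fold change of the 10 was -0.22, with 3 above and 7 below 0. The 6 that did not pass lay at 0.16 (Slc1a3), 0.06 (Glul), 0.03 (Aldh1l1), -0.02 (S100b), -0.08 (Slc1a2) and -0.35 (Gjb6). Gfap, the astrocyte intermediate filament gene, fell by 1.45, more than Apoe or Clu, with an edgeR adjusted p of 1.06e-07. Of the 8 neural stem and radial glia genes, Fabp7 and Hopx were lower as well (log2 fold changes -0.50 and -0.73, edgeR adjusted p = 0.00195 and 0.00819). The other 6 did not pass, at 0.16 (Slc1a3), 0.14 (Nes), 0.12 (Pax6), -0.22 (Vim), -0.27 (Sox2) and -0.40 (Prom1). The median of the 8 was -0.25, with 3 above and 5 below 0. The part of astrocyte or stem cell number or state in the Apoe and Clu difference was not tested. Microglia also express Apoe. In these libraries 7 of the 10 microglia and macrophage markers, including Aif1, Cx3cr1, Csf1r and Tmem119, had no count in any library. The 10 together reached 3.31 and 4.75 CPM in EF and 6.91 and 6.87 CPM in noEF, with 0 of the 2 tested genes called. Most of that sum was Cd68 (3.08 and 4.33 CPM in EF, 6.64 and 5.71 CPM in noEF). The part of microglia in the Apoe difference was not tested. Of 6 choroid plexus markers Ttr had no count, and the list summed to 9.02 and 8.94 CPM in EF and 6.45 and 6.75 CPM in noEF. Most of that sum was Otx2 (8.21 and 8.08 CPM in EF, 5.78 and 5.26 CPM in noEF), which was not called (edgeR adjusted p = 0.137).

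Apod encodes apolipoprotein D, a lipocalin of oligodendrocytes, fibroblasts and stressed astrocytes (ENSMUSG00000022548, chromosome 16, 31296192 to 31314808, minus strand). It had 4 and 28 counts in EF and 14 and 0 counts in noEF, or 0.112 and 0.802 CPM against 0.43 and 0 CPM. The groups overlapped, and a count of 0 in noEF 2 allows a level of up to 0.0892 CPM, the value of 3 counts. The log2 fold change was 1.08 with a 95% interval of -1.93 to 4.10 (edgeR adjusted p = 0.698), so at this depth no difference in either direction could be detected. The 8 fibroblast and meningeal markers summed to 9.3 and 9.6 CPM in EF and 6.27 and 7.61 CPM in noEF, with Lum at 0 in all libraries. Most of that sum was Ogn and Islr, and Ogn was called higher in EF (5.74 and 4.64 CPM in EF, 2.24 and 2.44 CPM in noEF, log2 fold change 1.15, edgeR adjusted p = 0.0323). The other 3 tested genes of this list did not pass. Islr was at -0.11 and Col1a1 at 0.16, and Pdgfrb had 0 and 0 counts in EF and 10 and 13 in noEF. The median of the 4 was 0.02, with 2 above and 2 below 0. Oligodendrocyte lineage markers summed to 2450 and 2800 CPM in EF and 2570 and 2410 CPM in noEF. Most of that was Olig1 (2004 and 2302 CPM in EF, 2102 and 1950 CPM in noEF). Neuron markers summed to 582 and 557 CPM in EF and 469 and 546 CPM in noEF. Most of that was Map2 (529 and 497 CPM in EF, 411 and 481 CPM in noEF), and Stmn2 had no count. Among the oligodendrocyte lineage genes the progenitor marker Pdgfra was lower in EF (log2 fold change -0.52, edgeR adjusted p = 0.0396). The part of these cells in the Apod values was not tested.

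**Figure D2:**
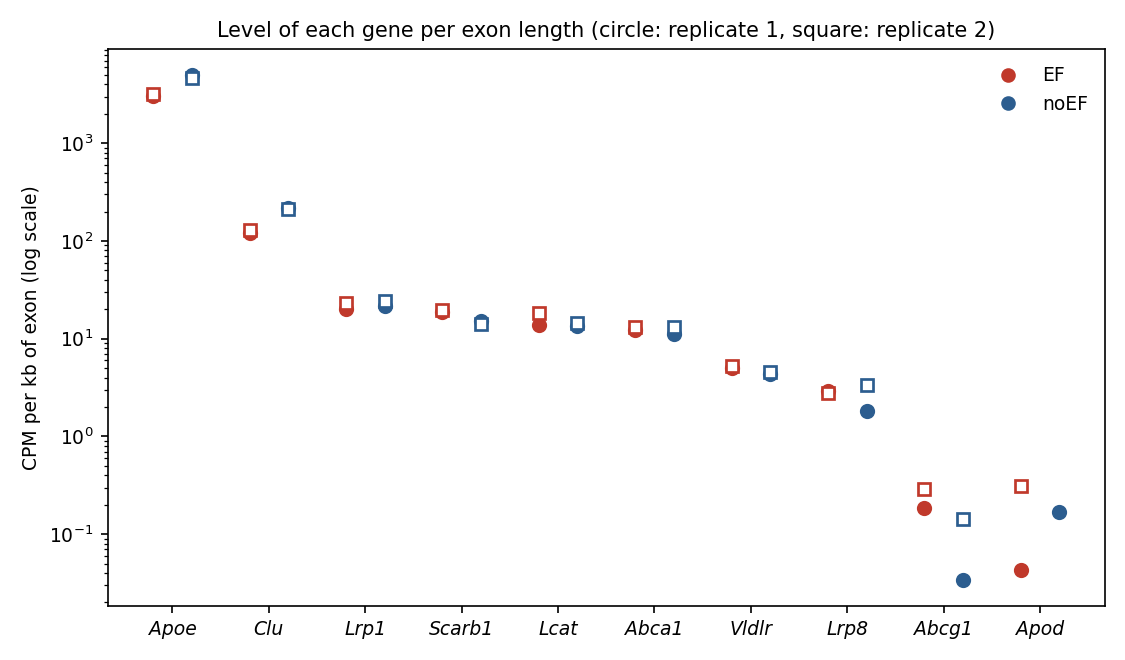
CPM per kb of exon (vertical axis, log scale) of each gene in each library, EF in red at the left of each gene and noEF in blue, ordered by the mean over all libraries. Apoe lies highest and Abcg1 and Apod lie lowest, below 1, and the count of 0 of Apod in noEF 2 cannot be drawn on this axis.

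Per kb of exon, the level of Apoe was 3121 ± 110 CPM per kb in EF and 4824 ± 312 in noEF, and that of Clu was 125 ± 5.27 in EF and 215 ± 2.00 in noEF (SD over 2 libraries). Both stood far above the receptor, enzyme and exporter genes. Over all 4 libraries Lrp1 followed at 20.1 to 24.1 CPM per kb, Scarb1 at 14.3 to 19.6, Lcat at 13.5 to 18.4, Abca1 at 11.2 to 13.3, Vldlr at 4.34 to 5.26 and Lrp8 at 1.82 to 3.33. Abcg1 stayed at 0.0337 to 0.291 and Apod at 0 to 0.311 CPM per kb. Of neighbours in this order, the ranges of Scarb1 and Lcat overlapped, as did those of Abcg1 and Apod, and no other pair did.

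Abca1 encodes the transporter that hands cholesterol and phospholipid to lipid-poor apolipoproteins (ENSMUSG00000015243, chromosome 4, 53030787 to 53159895, minus strand). Its start window is shown because the gene is a classical target of the liver X receptors, which bind a direct repeat of AGGTCA with a spacer of 4 bases, the DR4 element. The window spans chr4:53159846-53160145 on the minus strand (RefSeq, GRCm38.p6), and the capitals mark the stretch closest to a DR4 element, which begins 67 bases before the start.
Abca1: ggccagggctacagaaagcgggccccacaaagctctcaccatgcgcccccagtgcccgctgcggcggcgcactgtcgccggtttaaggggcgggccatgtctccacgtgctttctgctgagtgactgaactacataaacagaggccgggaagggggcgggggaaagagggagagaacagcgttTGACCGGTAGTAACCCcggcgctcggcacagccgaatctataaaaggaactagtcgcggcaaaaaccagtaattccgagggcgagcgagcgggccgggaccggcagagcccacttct
On the strand opposite to the gene this stretch matches 9 of the 12 fixed letters of the element, and 21.9% of all windows hold a match as good. This looser search was added after the search for the full element had found none among the members. A match in full is found in 0.0152% of all windows and in none of the 12 windows listed for 7 of the members. Clu, Abcg1 and Scarb1 were the members not matched in that table. AGGTCA itself was found in 1 of those 12 windows, at an internal start of Lrp8, and TTCNNNGAA in 1, that of Lrp1.

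Abca1 had 126 and 138 CPM in EF and 116 and 135 CPM in noEF. The groups overlapped. Its log2 fold change was 0.07 (SE 0.10, 95% interval -0.13 to 0.28, edgeR adjusted p = 0.718), an interval that holds neither a rise nor a fall as large as the fall of Apoe. Within a library there were 51.6 and 49.5 Apoe counts per Abca1 count in EF and 92.9 and 72.7 in noEF, so that both EF libraries were lower.

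Abcg1, which passes cholesterol to particles that already carry lipid (ENSMUSG00000024030, chromosome 17, 31057675 to 31117988, plus strand), was scarce. It had 48 and 74 counts in EF and 8 and 35 counts in noEF, or 1.34 and 2.12 CPM against 0.246 and 1.04 CPM. Both EF libraries were above both noEF libraries, but the noEF libraries differed 4.23-fold from each other. The log2 fold change of 1.42 had a 95% interval of -0.07 to 2.91 and fell short of the threshold (edgeR adjusted p = 0.234). Without noEF 2 it was called higher (log2 fold change 2.80, edgeR adjusted p = 0.0294), and without noEF 1 it was at 0.73 (edgeR adjusted p = 0.662).

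Lcat encodes lecithin-cholesterol acyltransferase, which esterifies cholesterol on apolipoprotein E particles (ENSMUSG00000035237, chromosome 8, 105939551 to 105943382, minus strand). It had 18.7 and 24.7 CPM in EF and 18.1 and 19.3 CPM in noEF, so EF 2 was high and EF 1 lay among the noEF libraries. The log2 fold change was 0.22 (SE 0.16, 95% interval -0.13 to 0.56, edgeR adjusted p = 0.466). Taking out the trend with exon length and GC content gave 0.50, still short of the threshold (edgeR adjusted p = 0.0505), and without EF 2 it was 0.0009 (edgeR adjusted p = 0.998).

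**Figure D3:**
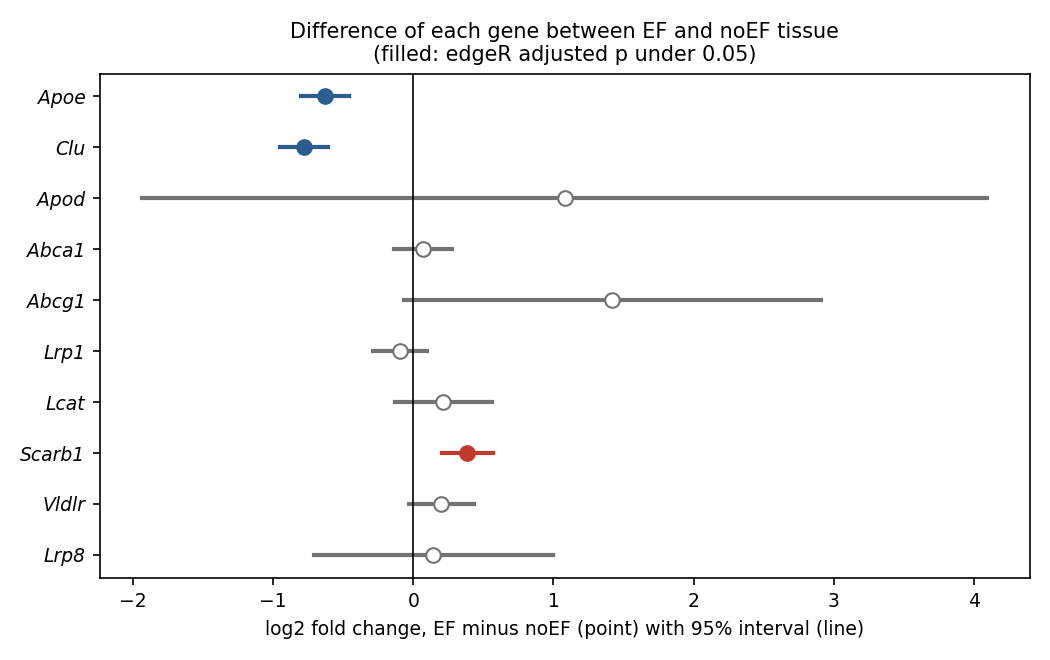
Log2 fold change of each gene, EF minus noEF (horizontal axis), as a point with its 95% interval, filled and coloured where the edgeR adjusted p was under 0.05 (blue lower, red higher). The intervals of Apoe and Clu lie below 0 and that of Scarb1 above 0, those of Abca1 and Lrp1 are narrow and cross 0, and those of Apod, Abcg1 and Lrp8 are wide.

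Scarb1 encodes scavenger receptor B1, which moves cholesterol esters between high density lipoproteins and cells (ENSMUSG00000037936, chromosome 5, 125277087 to 125341094, minus strand). It had 159 and 166 CPM in EF and 128 and 121 CPM in noEF. Both EF libraries were above both noEF libraries, and the replicates of each group were within 1.05-fold of each other. Scarb1 rose by 0.39 on the log2 scale in EF (SE 0.09, 95% interval 0.20 to 0.57, edgeR adjusted p = 0.0116), or 1.31-fold. The call was lost without EF 2 (log2 fold change 0.35, edgeR adjusted p = 0.0559) and with the replicate block and the length and GC trend fitted together (0.28, edgeR adjusted p = 0.0959). The lowest adjusted p among its 13 alternatives was 5.79e-04 and the highest 0.0959. Within a library there were 40.9 and 41.1 Apoe counts per Scarb1 count in EF and 84.5 and 81.1 in noEF, and 2.62 and 2.66 Clu counts per Scarb1 count in EF and 5.82 and 6.04 in noEF. Both ratios differed between the groups by more than between replicates, and neither depends on scaling between libraries. Each joins members called in opposite directions, so the ratios restate those calls and do not tell which gene moved.

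Lrp1 encodes the large endocytic receptor for apolipoprotein E particles (ENSMUSG00000040249, chromosome 10, 127538161 to 127621148, minus strand). It was the most abundant receptor of the set, with 356 and 407 CPM in EF and 386 and 427 CPM in noEF. The groups overlapped, and the log2 fold change of -0.09 (SE 0.09, 95% interval -0.28 to 0.10, edgeR adjusted p = 0.598) did not pass. The interval leaves out a fall as large as that of Apoe or Clu.

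Vldlr and Lrp8 encode the very low density lipoprotein receptor and apolipoprotein E receptor 2, which bind apolipoprotein E particles and also transmit the reelin signal that positions migrating neurons. Vldlr (ENSMUSG00000024924, chromosome 19, 27216484 to 27254231, plus strand) had 50.2 and 52.9 CPM in EF and 43.7 and 46.0 CPM in noEF. Both EF libraries were above both noEF libraries, but the log2 fold change of 0.20 (SE 0.11, 95% interval -0.03 to 0.44) did not pass (edgeR adjusted p = 0.290). Taking out the trend with exon length and GC content left 0.065, and 0.064 with the block as well (edgeR adjusted p = 0.766 and 0.801). Lrp8 (ENSMUSG00000028613, chromosome 4, 107802261 to 107876840, plus strand) had 30.5 and 29.3 CPM in EF and 19.1 and 35.0 CPM in noEF. The EF libraries lay between the noEF libraries, which differed 1.83-fold, a gap that 0.65% of the 4770 tested genes within 2-fold of its level equalled or passed. Its log2 fold change was 0.14 (SE 0.31, 95% interval -0.71 to 0.99, edgeR adjusted p = 0.846). Without noEF 2 Lrp8 was called higher (0.64, edgeR adjusted p = 0.00836), and without noEF 1 it was at -0.23 (edgeR adjusted p = 0.527), so its direction rested on which noEF library was used. None of the 10 members has an exon that overlaps an exon of another gene in the table.

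**Figure D4:**
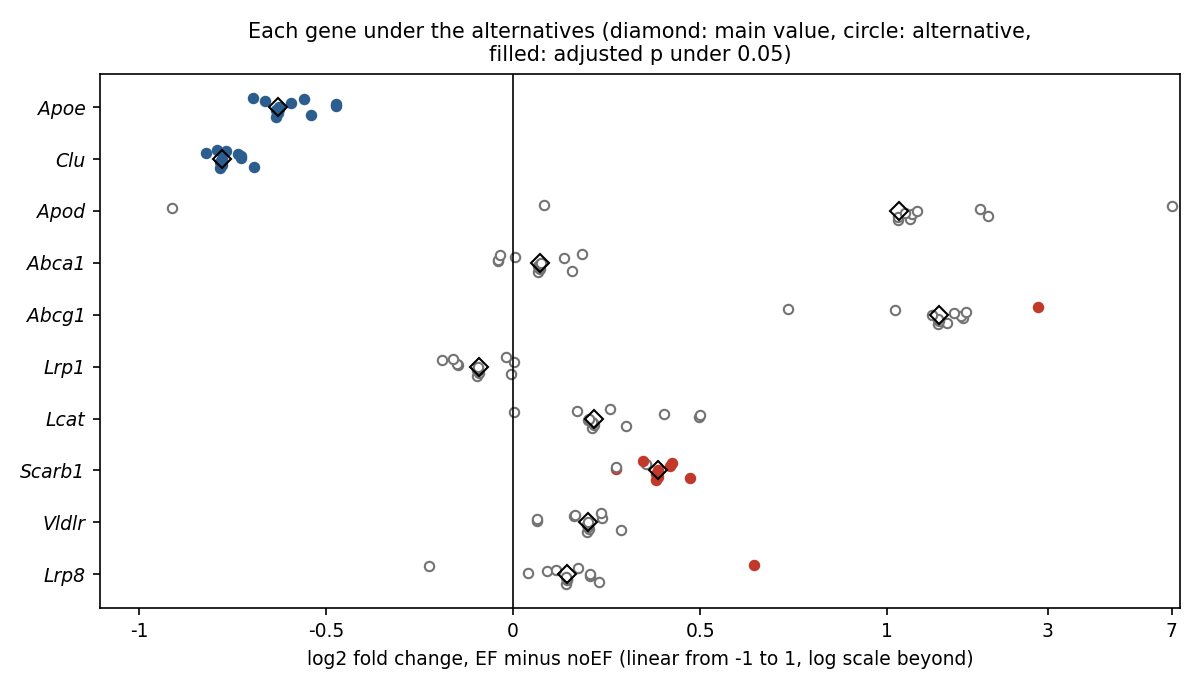
Log2 fold change of each gene, EF minus noEF (horizontal axis, linear from -1 to 1 and log scale beyond), with all libraries and the main settings (diamond) and under each alternative (circle, filled where the adjusted p was under 0.05). Apoe and Clu stay filled and below 0 throughout, Scarb1 lies above 0 throughout, and the points of Apod, Abcg1 and Lrp8 are scattered. The highest point of Apod comes from a comparison with a lone noEF library that had no count and gives no size.

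Related genes of lipid transport were read in 9 lists of 121 genes, of which 100 were tested. Of these, 3 were higher and 8 lower in EF, so that 11.0% were called, beside 8.82% of all tested genes. The median log2 fold change of the 100 was -0.01. The called genes were few in each list, and in 3 lists there were none.

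Of 13 liver X receptor, retinoid X receptor and target genes, 3 were lower and 0 higher, with a median of 0.01. Scd1, a stearoyl-CoA desaturase, was at 631 ± 9.32 CPM in the EF group, against 1051 ± 36.0 CPM in the noEF group (SD over 2 libraries; log2 fold change -0.74, edgeR adjusted p = 6.01e-05). Lpcat3, a lysophospholipid acyltransferase, was lower by 0.55 and the brain desaturase gene Scd2 by 0.34 (log2 fold changes -0.55 and -0.34, edgeR adjusted p = 0.00163 and 0.0152). Scd2 lost its call in 3 of its 13 alternatives, which were the replicate block and the fits without EF 1 and without EF 2. The receptor genes and the target Srebf1, which were chosen for their role after their values were seen, did not pass. Nr1h2, the liver X receptor beta gene, was at 42.5 ± 1.32 CPM in the EF group, against 46.6 ± 5.44 CPM in the noEF group, and Nr1h3, the alpha gene, at 2.44 ± 1.22 CPM in the EF group, against 2.33 ± 0.139 CPM in the noEF group (SD over 2 libraries). Srebf1, the gene of the lipid synthesis regulator SREBP1, was at 223 ± 3.52 CPM in the EF group, against 222 ± 2.51 CPM in the noEF group (SD over 2 libraries; edgeR adjusted p = 0.975). Scd1 and Scd2 are also known targets of SREBP1 itself.

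Among 12 genes of lipoprotein remodelling and lipases 8 were tested, and 2 of them were lower. Lpl, lipoprotein lipase, was at 37.1 ± 2.14 CPM in the EF group, against 57.8 ± 2.2 CPM in the noEF group (SD over 2 libraries; log2 fold change -0.64, edgeR adjusted p = 0.00267). Pla2g7, the secreted phospholipase that travels on lipoproteins, was at 1317 ± 93.0 CPM in the EF group, against 1687 ± 10.5 CPM in the noEF group (SD over 2 libraries; log2 fold change -0.36, edgeR adjusted p = 0.0129). Of 18 tested genes of intracellular cholesterol transport, storage and hydroxylation, 3 were lower and 0 higher. Npc2, the lysosomal cholesterol carrier, was at -0.36, the triglyceride lipase gene Pnpla2 at -0.41 and the sterol transfer gene Gramd1b at -0.61 (edgeR adjusted p = 0.0226, 0.0205 and 0.0248). The call of Gramd1b was lost without EF 2, and those of Npc2 and Pnpla2 were lost without EF 1 and without noEF 1. Library totals also ended the call of Npc2, and the block with the trend removed ended that of Pnpla2 (edgeR adjusted p = 0.056 and 0.0668). Pla2g7 lost its call without EF 2 and with the block and the trend removed (edgeR adjusted p = 0.155 and 0.0557).

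**Figure D5:**
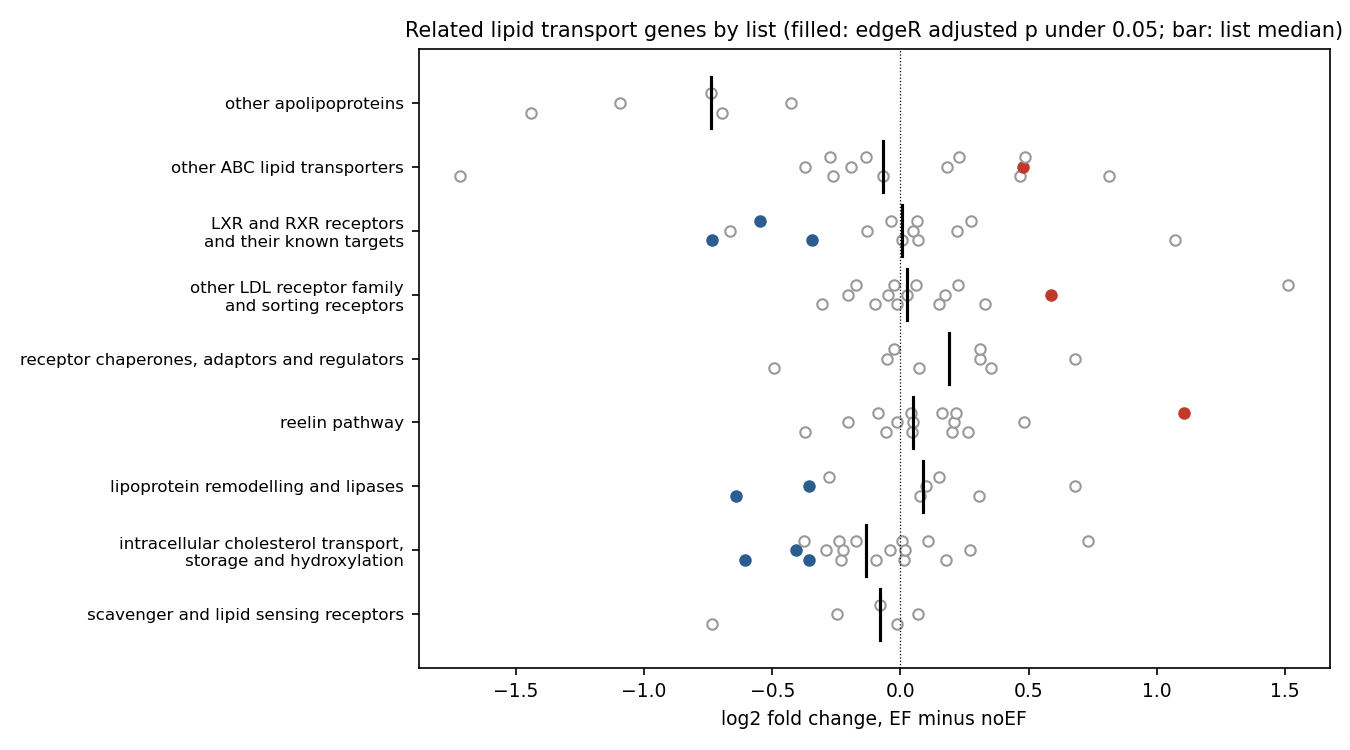
Log2 fold change, EF minus noEF (horizontal axis), of the tested genes of 9 related lists (rows), filled where the edgeR adjusted p was under 0.05 (blue lower, red higher), with a bar at each list's median. The 8 lower genes lie in the lists of liver X receptor targets, lipases and intracellular cholesterol transport, and the 3 higher genes lie 1 each in the ABC transporter, LDL receptor family and reelin lists.

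Among 15 further genes of the LDL receptor family and sorting receptors Lrp5, a Wnt co-receptor, was higher, at 21.5 ± 3.70 CPM in the EF group, against 14.3 ± 1.85 CPM in the noEF group (SD over 2 libraries; log2 fold change 0.59, edgeR adjusted p = 0.0457), and 0 were lower. Of 13 tested ABC transporter genes Abcg2, an exporter of drugs and urate, was higher by 0.48 with an edgeR adjusted p of 0.0495. Lrp5 kept its call in 6 and Abcg2 in 4 of 13 alternatives. Of 15 reelin pathway genes Thbs1, whose product thrombospondin 1 binds Lrp8 and Vldlr and the matrix, was higher, at 17.3 ± 3.41 CPM in the EF group, against 8.01 ± 0.199 CPM in the noEF group (SD over 2 libraries; log2 fold change 1.11, edgeR adjusted p = 0.00229). Reelin itself (Reln) and its adaptor gene Dab1, chosen likewise, had log2 fold changes of -0.37 and -0.06, short of the threshold (edgeR adjusted p = 0.648 and 0.842).

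In 3 lists no gene was called. Of the 14 other apolipoprotein genes 4 had no count in any library and 5 were tested, with log2 fold changes below 0 in all 5. These genes were scarce, and the 14 together summed to 2.55 and 4.67 CPM in EF and 7.9 and 5.17 CPM in noEF. Apoh was at 1.02 ± 0.377 CPM in the EF group, against 2.19 ± 0.820 CPM in the noEF group and Apoc1 at 0.556 ± 0.470 CPM in the EF group, against 1.52 ± 0.463 CPM in the noEF group (SD over 2 libraries), and the edgeR adjusted p was 0.225 and 0.255. Of the 8 receptor chaperone, adaptor and regulator genes Sh3bp4 and Gulp1 had the smallest p, at log2 fold changes of 0.31 and 0.35 (edgeR adjusted p = 0.127 and 0.215). Of 10 scavenger and lipid sensing receptor genes 5 were tested, led by Cd68 at -0.74 and Mertk at -0.25 (edgeR adjusted p = 0.119 and 0.488). The microglial lipid receptor gene Trem2 and its partner Tyrobp had no count in any library.

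Among the 2001 other tested genes with a mean of at least 100 CPM, the profiles over the 4 libraries closest to that of Apoe were those of Tecr, Fbxo2 and Rpl21, at distances of 0.0471, 0.0499 and 0.0583 between the gene-centred log2 CPM values, against a median distance of 0.604. Tecr, which encodes an enoyl-CoA reductase of very long fatty acid synthesis, averaged 408 CPM in the EF group, against 629 CPM in the noEF group. Fbxo2 averaged 78.7 CPM in EF against 123 CPM in noEF, and Rpl21 83.1 CPM against 127 CPM. Their log2 fold changes of -0.62, -0.65 and -0.61, in the order named, follow from the choice by likeness to Apoe.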

How the data were processed

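Polyadenylated RNA of 4 libraries was captured, fragmented and copied with random hexamers, per the labels' protocols, and no step there keeps the strand. The values the authors deposited are unscaled counts, whole numbers for each gene and library. Per the submitters' processing notes, HISAT2 2.0.4, StringTie 2.2.1, DESeq2 1.44.0 and build GRCm38 were used. How reads were counted, against which annotation and with what strand setting, is not given in the sources used here. Only 57 to 76 genes per library had a count of 1, while 239 to 294 had a count of 2, so counts may not be independent molecules, and the limit given for a count of 0 covers counting error only.

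Genes passing filterByExpr (minimum count 10, minimum total 15) were scaled by TMM and tested with edgeR 4.0.16 (R 4.3.3; quasi-likelihood F test, robust) on the deposited counts. P-values were adjusted over the 14263 tested genes at 0.05. SE is the log2 fold change over the square root of F, and intervals are at 95%. The script was tested on simulated data. Exon lengths came from GENCODE M21 on GRCm38, and promoter windows (250 bases before to 50 after a start) from RefSeq. The length and GC trend was a smooth fit per library (mgcv 1.9.3).

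The members and lists were chosen with earlier results of these data known. Named are all members; of each list the called genes, up to the 4 with the smallest p, or with none called the 2 with the smallest p; and the 3 genes nearest to Apoe. One list symbol was matched through a synonym. The comparison of member proteins was not made. Alternatives were DESeq2's size factors, library totals, no filter, 1 CPM in 2 libraries, DESeq2 1.42.0, limma-voom (limma 3.58.1), the replicate block, the length and GC trend, both together, and each library left out. A further result on a related gene is not reported here.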

Additional observations from a re-analysis of the deposited data

How the results depend on the processing

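Apoe and Clu kept their direction and their call in all 13 alternatives, with log2 fold changes of -0.70 to -0.47 and -0.82 to -0.69. The number of members called lower was 2 in every alternative. The number called higher was 1, but 0 with the replicate block and the length and GC trend together and 0 to 3 when single libraries were left out. Where a library was left out, the lone library of its group was assumed to vary like the others. Over all tested genes, 1138 were higher with library totals, 915 higher and 1203 lower with no filter, 319 higher and 465 lower with the block and the trend together, and 217 to 790 higher and 337 to 1065 lower with single libraries left out. Of the related genes, 8 were higher with library totals and 1 with DESeq2's size factors, limma-voom, the replicate block, or the block with the trend, and single libraries left out gave 1 to 3 higher and 5 to 8 lower.

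The replicate numbers, taken from the sample titles, are not said to mark a shared culture. Libraries with the same replicate number did not deviate together (r = -0.0898 across 14263 genes, which are not independent). For EF 2 the library name is E3, so its replicate number is not the number in that name. Sharing by the numbers in the library names was not tested. With the replicate block 410 genes were higher and 568 lower, and the called members were the same 3.

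Log2 fold changes that were not called changed sign as follows. With the trend removed, alone and with the block, Abca1 was at -0.041 and Srebf1 at -0.018. With library totals Dab1 was at 0.030. Nr1h3 was at -0.021 with limma-voom and -0.017 with the block. Over the fits that left out single libraries, Abca1 ran from -0.035 to 0.18, Dab1 from -0.14 to 0.031, Lrp1 from -0.19 to 0.0030, Lrp8 from -0.23 to 0.64, Nr1h3 from -0.56 to 0.51, Reln from -0.90 to 0.016 and Srebf1 from -0.0087 to 0.022. Apod ran from -0.91 to 7.00, the upper value against a lone noEF library with no count, which gives no size. The cause was not tested. DESeq2 gave no adjusted p for Apod and Abcg1. Apod, at under 1 CPM on average, was too scarce for a firm statement, and with 2 libraries a group 1 library can decide a call, as it did for Scarb1, Abcg1 and Lrp8.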
